A study of Drosophila melanogaster with 4 samples.

Results

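The Toll and Imd pathways were followed at the level of transcripts through 33 genes that encode their upstream parts: recognition proteins, proteases, ligand, receptor, adaptors, kinases, ubiquitin enzymes, NF-kappaB factors and inhibitors. The genes were chosen by name and role, with earlier results of these libraries known, and the antimicrobial peptides that the pathways induce were left out. All 33 were found by symbol among the 17628 gene identifiers of the count table, and all 33 had enough reads to be among the 12529 genes tested. The samples were whole Oregon flies, 5 days old, kept on food with galactose or on food with glucose, with 2 libraries of poly-A RNA for each sugar. The labels name no mutation, transgene or infection in either group and give no sex. Whether replicate libraries stem from separate fly cultures is not stated, and the p-values therefore cover library-to-library spread that may be technical. In whole flies, fewer cells of a type and less RNA per cell cannot be told apart. Library totals lay between 21147212 and 25497099 counts.

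Both pathways end in transcription factors of the NF-kappaB family and control most antimicrobial peptide genes of the fly. In the Toll pathway, recognition proteins in the blood set off a chain of serine proteases that ends with the cleavage of Spatzle, the ligand of Toll. Inside the cell, adaptors and a kinase then remove the inhibitor Cactus from Dif and Dorsal. In the Imd pathway, membrane and cytoplasmic peptidoglycan receptors recruit the adaptor Imd, and a caspase, ubiquitin enzymes and kinases lead to cleavage of Relish. The fat body is the main source of the blood-borne parts, while mothers also load Toll pathway transcripts into eggs, where the pathway patterns the back-to-belly axis of the embryo.

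The extracellular start of the Toll pathway had the largest median difference between the diets among the role groups of the 33 genes. All 7 recognition, protease and serpin genes had lower mean levels on galactose than on glucose, with a median log2 fold change of -1.25. The 7 genes of the Toll ligand, receptor and cytoplasmic relay had a median of 0.36, and 6 of them were higher on galactose. Leaving out galactose replicate 2 took that median to 0.12, leaving out glucose replicate 1 took it to 0.096, and leaving out glucose replicate 2 took it to 0.64. The 10 genes of the Imd signalling core had a median of 0.31 with 8 higher; with a library left out it lay between 0.12 and 0.42, the lower value without galactose replicate 2. The 4 genes for NF-kappaB factors and Cactus had a median of -0.18, between -0.35 and -0.047 with a library left out, and the 5 negative regulators of Imd had a median of -0.10, between -0.095 and 0.066. Over all genes tested the median was -0.04 and 53.1% had a negative value.

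No member passed the test over all genes. edgeR's quasi-likelihood test called 0 of the 33 members at an adjusted p of 0.05, where the share of all genes called was 0.0%. At an unadjusted p under 0.05 there were 8 members, of which 7 were lower on galactose, against 5.16% of all genes lower at that level, and 1 was higher, against 3.08%. DESeq2 called 3 members, nec, SPE and grass, all lower on galactose, where it called 0.623% of all genes lower. limma-voom called 0. The authors' deposited table holds the same 3 members at an adjusted p under 0.05, and 87 of all 11679 genes with an adjusted p. The log2 values, which run glucose over galactose in that table, were 1.32 for nec, 1.25 for SPE and 1.14 for grass. For 11 of the 33 members both galactose values were under both glucose values, against 23.4% of all genes, and for 8 both were over them, against 18.8%.

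**Figure D1:**
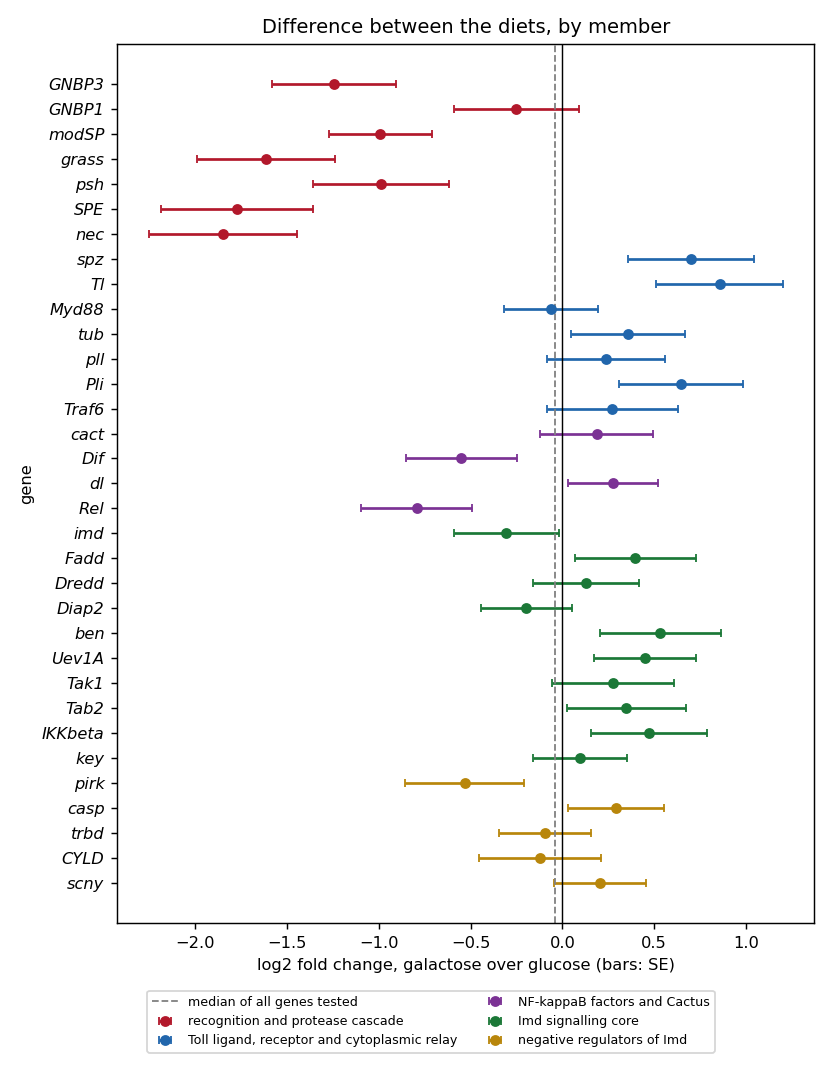
Log2 fold change of galactose over glucose for each of the 33 members, with the SE from edgeR's fit as bars, coloured by role, and the median of all genes tested (-0.04) as a dashed line. The 7 genes of the recognition and protease cascade all lie left of 0, at -0.25 to -1.85, while the highest value is that of Tl at 0.86.

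All 7 genes of the recognition and protease cascade had lower means on galactose. Of them edgeR called 0 and DESeq2 called 3, where DESeq2 called 0.623% of all genes lower. The gene nec (FBgn0002930, chromosome 2R, 7156477 to 7158241, BDGP6.54 annotation) encodes Necrotic, a serpin that restrains the protease chain. Its level, in counts scaled to a common library total with TMM factors (CPM), was 76.7 and 55.5 in the galactose libraries and 153 and 323 in the glucose libraries. Both galactose values were below both glucose values, with means of 66.1 ± 15 and 238.0 ± 119.9 CPM (SD, n = 2 each), a 3.60-fold lower level on galactose. The log2 fold change was -1.85 ± 0.40 (SE), with an adjusted p of 0.541 by edgeR and 0.00402 by DESeq2.

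SPE (FBgn0039102, 3R, 23686255 to 23688147) is the Spatzle-processing enzyme, the last protease before the ligand. It stood at 55.1 and 35.2 CPM in galactose libraries, against 101 and 207 CPM in glucose libraries. The groups did not overlap, and the log2 fold change was -1.77 ± 0.41 (SE), with an adjusted p of 0.543 by edgeR and 0.0103 by DESeq2. The clip-domain protease gene grass (FBgn0039494, 3R, 27157948 to 27159781), which acts upstream of SPE, had 9.75 and 8.27 CPM on galactose and 19.5 and 35.8 CPM on glucose. Here the galactose libraries were close to each other and the glucose libraries were 1.83-fold apart, with a log2 fold change of -1.62 ± 0.38 (SE), an adjusted p of 0.541 by edgeR and 0.031 by DESeq2.

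GNBP3 (FBgn0040321, 3L, 8955021 to 8956551) encodes a secreted protein that binds fungal beta-glucan. Its values were 25.3 and 18.3 CPM in galactose libraries, against 39.5 and 63.9 CPM in glucose libraries, a log2 fold change of -1.25 ± 0.34 (SE; edgeR adjusted p = 0.582, DESeq2 adjusted p = 0.147). The apical protease gene modSP (FBgn0051217, 3R, 16652446 to 16655662), which passes the signal from recognition proteins to Grass, had 25.8 and 19.5 CPM on galactose and 41.1 and 48.9 CPM on glucose. Its spread within each diet was the smaller part of the difference, with replicates 1.32-fold apart on galactose and 1.19-fold on glucose beside a 1.99-fold difference of the means. The log2 fold change was -0.99 ± 0.28 (SE; edgeR adjusted p = 0.582).

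The protease Persephone, encoded by psh (FBgn0030926, X, 18484487 to 18486921), senses proteases released by microbes. Its transcript stood at 12.1 and 7.50 CPM on galactose and 16.2 and 22.8 CPM on glucose, a log2 fold change of -0.99 ± 0.37 (SE; edgeR adjusted p = 0.591). The seventh gene, GNBP1 (FBgn0040323), acts with a peptidoglycan receptor against Gram-positive bacteria and had the smallest difference of the 7. It had 9.05 and 7.15 CPM on galactose, against 8.73 and 10.6 CPM on glucose, so the groups overlapped.

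**Figure D2:**
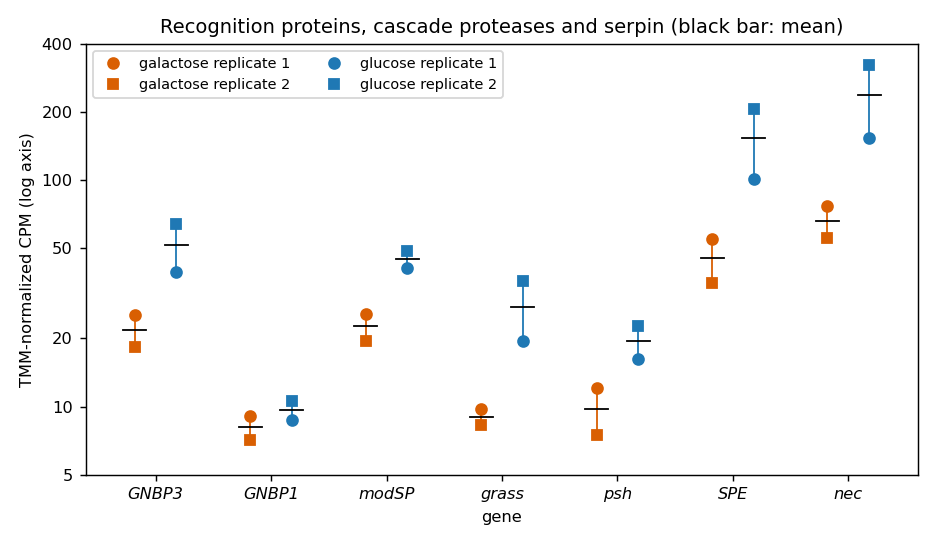
TMM-normalized CPM on a log axis for the 7 genes of the recognition and protease cascade, with galactose (orange) left of glucose (blue), a circle for replicate 1, a square for replicate 2 and a black bar for the mean. For 6 of the 7 genes both galactose points lie below both glucose points, against 23.4% of all genes tested. In all 7 the lowest point is galactose replicate 2 and the highest is glucose replicate 2.

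All 7 cascade genes shared the order of the extreme libraries. Galactose replicate 2 was the lowest and glucose replicate 2 the highest library for each of them, while over all genes tested the first held for 30.6% and the second for 25.2%. Their summed level was 214 and 151 CPM in the galactose libraries, against 379.8 and 712 CPM in the glucose libraries. The difference between the glucose libraries was thus larger than that between galactose replicate 1 and glucose replicate 1. Without glucose replicate 1, edgeR called 5 cascade genes (nec, SPE, grass, GNBP3 and psh), where it called 2.75% of 12742 genes lower, and DESeq2 called 4, where it called 1.68% of the 12000 genes with an adjusted p lower. That fit holds a single glucose library, glucose replicate 2, which is assumed to vary like the galactose libraries, so these calls carry no measure of the spread on glucose. When any other single library was left out, each tool called 0 cascade genes. Without glucose replicate 2 the log2 fold changes were -1.21 for nec and -1.16 for SPE. Leaving out a library gave a median of the 7 between -1.57, without galactose replicate 1, and -0.85, without glucose replicate 2.

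Markers of candidate source cells were in part lower as well. Of 8 fat body markers 6 were tested, and 5 had lower means on galactose, at a median log2 fold change of -0.37. Their summed level was 15660 to 17180 CPM on galactose and 19230 to 22470 CPM on glucose, and 96.4% to 96.9% of it on galactose and 96.5% to 98.2% on glucose came from the yolk protein genes Yp1, Yp2 and Yp3, which the ovary also expresses. The lipoprotein gene apolpp, at 603.1 and 475 CPM on galactose and 645 and 389.2 CPM on glucose, had a log2 fold change of 0.06, while Fbp1 and Fbp2, which belong to the larval fat body, had at most 7 counts in any library. Ilp6 had 18.2 and 9.08 CPM on galactose and 24.1 and 18.9 CPM on glucose, a log2 fold change of -0.66. Lsp2, counted among the 5 lower markers at -0.39, was near the floor. It had 0.042 and 0.764 CPM on galactose and 1.01 and 0.0 CPM on glucose, which overlapped. Of 10 hemocyte markers 8 were tested and 5 were lower, at a median log2 fold change of -0.61 that was -0.15 without glucose replicate 2. Their summed level was 282 to 306 CPM on galactose and 291 to 331 CPM on glucose, and the most abundant of them, the scavenger receptor gene crq, had 145.9 and 166.5 CPM on galactose and 124 and 122 CPM on glucose, the other way round. Hml, a gene of circulating hemocytes, had 34.7 and 17.3 CPM on galactose and 39.0 and 48.9 CPM on glucose. The hemocyte marker He had at most 3 counts in a library. The part of these cell types in the cascade's difference was not tested.

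Downstream of the proteases, the ligand and receptor lay in the opposite direction. The ligand gene spz (FBgn0003495, 3R, 27064990 to 27070070) had 36.2 and 64.8 CPM in galactose libraries, against 27.9 and 34.2 CPM in glucose libraries. Galactose replicate 2 stood apart, 1.79-fold above galactose replicate 1, and the log2 fold change was 0.70 ± 0.34 (SE; edgeR adjusted p = 0.62). It was 0.22 without that library. The receptor gene Tl (FBgn0262473, 3R, 26799041 to 26842403) had 108 and 173 CPM on galactose and 61.1 and 93.9 CPM on glucose, and was the only member higher on galactose at an unadjusted p under 0.05. Its groups did not overlap, with a log2 fold change of 0.86 ± 0.34 (SE) and an adjusted p of 0.603 by edgeR and 0.458 by DESeq2. Without galactose replicate 2 the value was 0.48.

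The levels of the processing enzyme and its substrate were also set against each other. Per kilobase of annotated exon, SPE transcripts stood at 2.84 and 1.01 times the level of spz transcripts in the galactose libraries, and at 6.77 and 11.3 times in the glucose libraries. The ratio of spz to Tl, on the same scale, was 0.738 and 0.825 on galactose and 1.01 and 0.8002 on glucose, which overlapped. A two-sided exact permutation test of 2 libraries against 2 cannot give a p below 0.333, so no p is given for such ratios.

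Of the cytoplasmic relay, 1 gene had groups that did not overlap. Pli, for Pellino, a ubiquitin ligase that acts at the kinase step, had 59.2 and 80.5 CPM on galactose and 55.9 and 33.4 CPM on glucose. Glucose replicate 2 was the low library there, and the log2 fold change was 0.64 ± 0.34 (SE; edgeR adjusted p = 0.626), with 0.33 without that library and 1.06 without glucose replicate 1. The adaptor gene Myd88 was level, at 59.5 and 58.2 CPM on galactose and 55.0 and 68.0 CPM on glucose, with a log2 fold change of -0.06 ± 0.26 (SE).

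The adaptor gene tub (Tube) had 53.8 and 73.2 CPM in galactose libraries, against 39.7 and 59.3 CPM in glucose libraries. Its partner pll, the kinase Pelle, had 27.1 and 41.7 CPM on galactose and 25.0 and 33.4 CPM on glucose. Traf6, a TRAF-family adaptor, had 22.8 and 35.9 CPM on galactose and 18.9 and 29.8 CPM on glucose. In these 3 genes the groups overlapped, with galactose replicate 2 highest and glucose replicate 1 lowest each time. Their log2 fold changes were 0.36, 0.24 and 0.27, and those of pll and Traf6 turned negative without galactose replicate 2, at -0.10 and -0.089, where that of tub was 0.12.

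The set medians of the female germline markers and of the ligand, receptor and relay genes were both highest in galactose replicate 2 and lowest in glucose replicate 1. Of single genes, 7 of 12 germline markers and 5 of 7 relay genes had both of these extremes. The relay group's median deviation from each gene's mean, on the log2(CPM + 0.5) scale, was -0.04 and 0.45 in galactose replicates 1 and 2, and -0.46 and 0.10 in glucose replicates 1 and 2. For the germline markers it was 0.06 and 0.50 on galactose and -0.40 and -0.06 on glucose. Of 13 germline markers 12 were tested and 11 had higher means on galactose, at a median log2 fold change of 0.56 that was 0.24 without galactose replicate 2. Their summed level was 2197 to 3130 CPM on galactose and 1654 to 2189 CPM on glucose, and vas was not analysed here. Their part in the difference was not tested. The members also known from embryonic patterning were spz, Tl, Myd88, tub, pll, cact and dl, a grouping made after the values were seen. All but cact and dl are relay genes already counted above. The median log2 fold change of this grouping was 0.28, with 6 of 7 higher.

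**Figure D3:**
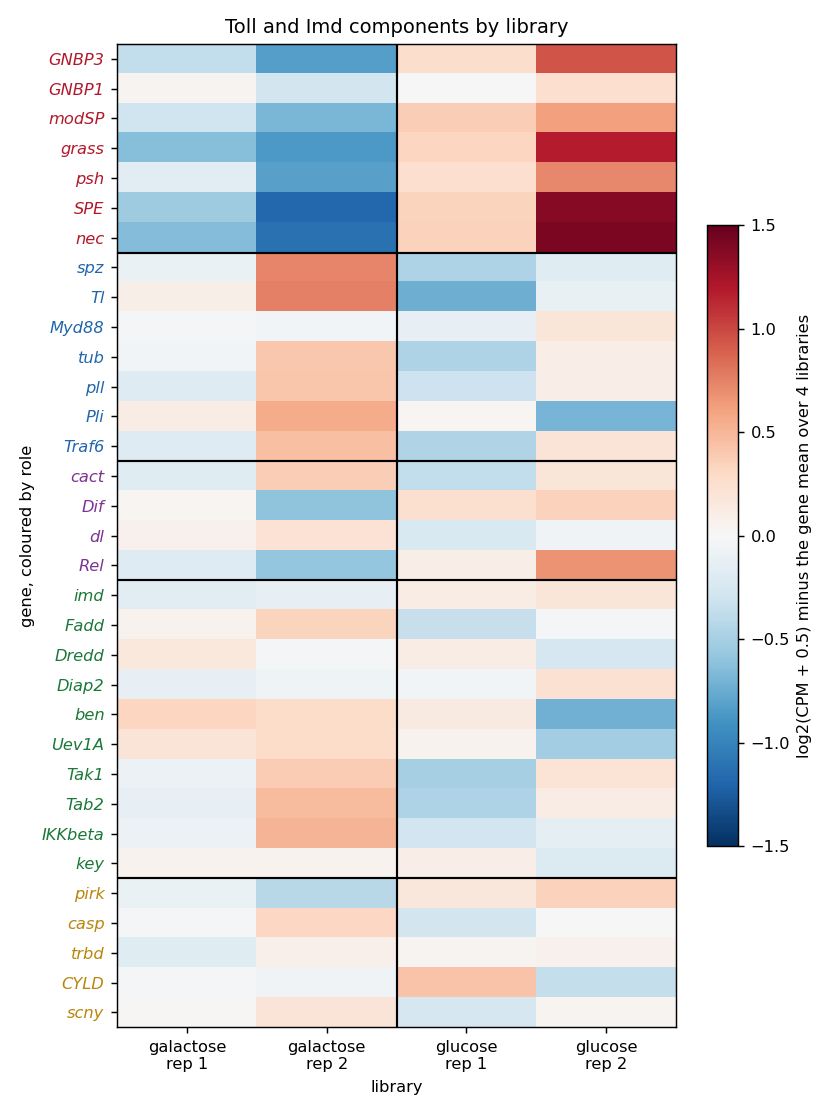
Heat map of each member's log2(CPM + 0.5) minus its mean over the 4 libraries, galactose libraries left and glucose libraries right, genes grouped by role from the cascade at the top to the negative regulators of Imd at the bottom. The cascade block runs from galactose replicate 2 (lowest) to glucose replicate 2 (highest), while most relay genes are highest in galactose replicate 2 and lowest in glucose replicate 1.

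The 3 NF-kappaB genes lay on different sides of 0. Rel (FBgn0014018, 3R, 9044183 to 9047977), for Relish, the factor of the Imd pathway, had 123 and 94.1 CPM in galactose libraries, against 150.3 and 226 CPM in glucose libraries. Both galactose libraries were lower, and the log2 fold change was -0.79 ± 0.30 (SE), with an adjusted p of 0.591 by edgeR and 0.562 by DESeq2. Without glucose replicate 2 it was -0.47. Dif (FBgn0011274, 2L, 17413248 to 17433161), the Toll pathway factor of adult immunity, had 35.7 and 22.9 CPM on galactose and 41.3 and 44.6 CPM on glucose. The low library was galactose replicate 2, and the log2 fold change of -0.55 ± 0.30 (SE; edgeR adjusted p = 0.637) was -0.26 without it.

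Dorsal, the factor of embryonic patterning and larval immunity, is encoded by dl (FBgn0260632, 2L, 17436830 to 17450364), a close neighbour of Dif on the chromosome. It had 95.8 and 106 CPM on galactose and 78.4 and 88.5 CPM on glucose, a log2 fold change of 0.28 ± 0.25 (SE; edgeR adjusted p = 0.745). The groups did not overlap, in the direction opposite to Dif. Per kilobase of exon, Dif transcripts stood at 0.421 and 0.243 times those of dl on galactose and at 0.596 and 0.569 times on glucose. Relish transcripts stood at 1.66 and 1.31 times those of dl and Dif together on galactose, against 2.21 and 2.99 times on glucose.

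The inhibitor gene cact (FBgn0000250, 2L, 16313036 to 16326207), for Cactus, which holds Dif and Dorsal in the cytoplasm, was among the most abundant members. It had 247 and 359.8 CPM in galactose libraries, against 216 and 317 CPM in glucose libraries. The replicates within a diet were 1.46-fold and 1.47-fold apart, more than the 1.14-fold difference of the means, and the log2 fold change of 0.19 ± 0.31 (SE; edgeR adjusted p = 0.857) turned to -0.11 without galactose replicate 2. Cactus transcripts per kilobase stood at 3.51 and 5.27 times those of dl and Dif together on galactose and 3.35 and 4.42 times on glucose, which overlapped.

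In the Imd pathway, the adaptor itself was slightly lower on galactose. The gene imd (FBgn0013983, 2R, 18409796 to 18413599) had 13.3 and 13.7 CPM in galactose libraries, against 16.3 and 17.1 CPM in glucose libraries. Replicates were within 1.05-fold of each other on both diets, and the log2 fold change was -0.31 ± 0.29 (SE; edgeR adjusted p = 0.751). Fadd, the death-domain adaptor that joins Imd to the caspase, had 10.8 and 13.2 CPM on galactose and 8.07 and 10.2 CPM on glucose. The caspase gene Dredd, whose product cleaves Imd and Relish, had 24.2 and 21.2 CPM on galactose and 23.4 and 18.1 CPM on glucose. Fadd was higher in both galactose libraries, at a log2 fold change of 0.40 ± 0.33 (SE), and the Dredd groups overlapped.

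The conjugating enzyme genes ben and Uev1A shared a low library. The conjugating enzyme gene ben (Bendless) had 139.7 and 135 CPM in galactose libraries, against 123 and 67.6 CPM in glucose libraries. Its partner Uev1A had 255 and 270.5 CPM on galactose and 230.4 and 155 CPM on glucose. Both were lowest in glucose replicate 2, with replicates on glucose 1.81-fold and 1.49-fold apart, and on galactose 1.03-fold and 1.06-fold. Their log2 fold changes were 0.53 ± 0.33 and 0.45 ± 0.28 (SE; edgeR adjusted p = 0.659 for both). They were 0.17 and 0.20 without glucose replicate 2, and 1.02 and 0.76 without glucose replicate 1. The ubiquitin ligase gene Diap2, which modifies Imd and Dredd, had 96.9 and 101.5 CPM on galactose and 103 and 124 CPM on glucose, a log2 fold change of -0.20 ± 0.25 (SE).

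The genes of the kinase steps had log2 fold changes between 0.10 and 0.47. Tak1, the kinase that activates the IKK complex, had 63.2 and 87.9 CPM on galactose and 47.5 and 77.5 CPM on glucose. Its partner Tab2 had 99.2 and 150.5 CPM on galactose and 78.6 and 118 CPM on glucose. Both overlapped between the diets and both were highest in galactose replicate 2 and lowest in glucose replicate 1. IKKbeta, the catalytic subunit of the complex, had 19.7 and 30.0 CPM on galactose and 17.1 and 18.8 CPM on glucose. Of the 4 genes of these steps it alone had groups without overlap, at a log2 fold change of 0.47 ± 0.32 (SE; edgeR adjusted p = 0.68) that was 0.14 without galactose replicate 2. Without the same library Tak1 and Tab2 both stood at 0.020. The regulatory subunit gene key (Kenny; FBgn0041205, 2R, 24785514 to 24787411) had 47.6 and 47.4 CPM on galactose and 49.3 and 39.7 CPM on glucose, with a log2 fold change of 0.10 ± 0.26 (SE; edgeR adjusted p = 0.911) that was -0.022 with upper-quartile scaling.

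Among the negative regulators, pirk (FBgn0034647, 2R, 21660967 to 21662995) had the lowest value. Its product interrupts the contact of peptidoglycan receptors with Imd, and the gene is itself known to be induced by the pathway. It had 10.3 and 8.18 CPM in galactose libraries, against 12.5 and 14.2 CPM in glucose libraries, without overlap, and a log2 fold change of -0.53 ± 0.32 (SE; edgeR adjusted p = 0.648). The gene casp, for Caspar, which holds back the cleavage of Relish, had 110.0 and 138 CPM on galactose and 91.8 and 111 CPM on glucose.

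The other 3 negative regulators remove ubiquitin. The gene trbd (Trabid), which acts on Tak1, had 66.0 and 79.2 CPM on galactose and 77.1 and 78.3 CPM on glucose. CYLD had 28.4 and 27.7 CPM on galactose, against 38.7 and 22.3 CPM on glucose, so that both glucose libraries lay outside the narrow range of the galactose libraries, on either side. The gene scny (Scrawny), which acts on Imd, had 143 and 161 CPM on galactose and 119 and 145 CPM on glucose. All 4 genes other than pirk overlapped between the diets, with log2 fold changes from -0.12 for CYLD to 0.29 for casp. For CYLD, 15.04% of exonic bases are shared with genes on the opposite strand, the highest share of any member, so its counts are uncertain: no label or file header states how strand was treated. Exonic bases shared with genes on the same strand made up 8.45% for SPE, 8.08% for IKKbeta and 3.57% for Dredd.

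The order of abundance, in mean CPM per kilobase of annotated exon, differed at its top. On galactose the order began with Uev1A at 154, cact at 91.3 and ben at 66.4 CPM per kilobase, and nec and SPE followed at ranks 6 and 7 with 40.5 and 35.6. On glucose it began with nec at 146, SPE at 122 and Uev1A at 113. The glucose replicates of nec and SPE were 2.11-fold and 2.04-fold apart, more than the means of these 3 genes, so the place of Uev1A on glucose is within the spread. Per kilobase, nec stood at 1.17 and 1.21 times SPE in the glucose libraries, above it in both. GNBP1 had the lowest level on both diets, at 4.54 CPM per kilobase on galactose and 5.40 on glucose, while Rel was at rank 11 on galactose and rank 5 on glucose.

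Exonic length was set beside the difference between the diets, because long genes had higher values on galactose than short ones over all genes. Across 12277 tested genes with a known exonic length, Spearman's rho between length and log2 fold change was 0.335, a description across genes, which share the same 4 libraries. Across the 33 members rho was 0.371, and across the 26 members outside the cascade it was 0.005. The cascade genes had from 1267 to 2289 exonic bases. The 3625 tested genes in that range had a median log2 fold change of -0.10, and 28.0% were lower in both galactose libraries. The 9 other members in that range had values from -0.53 to 0.53 with a median of 0.13, against -0.25 to -1.85 for the cascade. The part of exonic length in the cascade's difference was not tested.

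**Figure D4:**
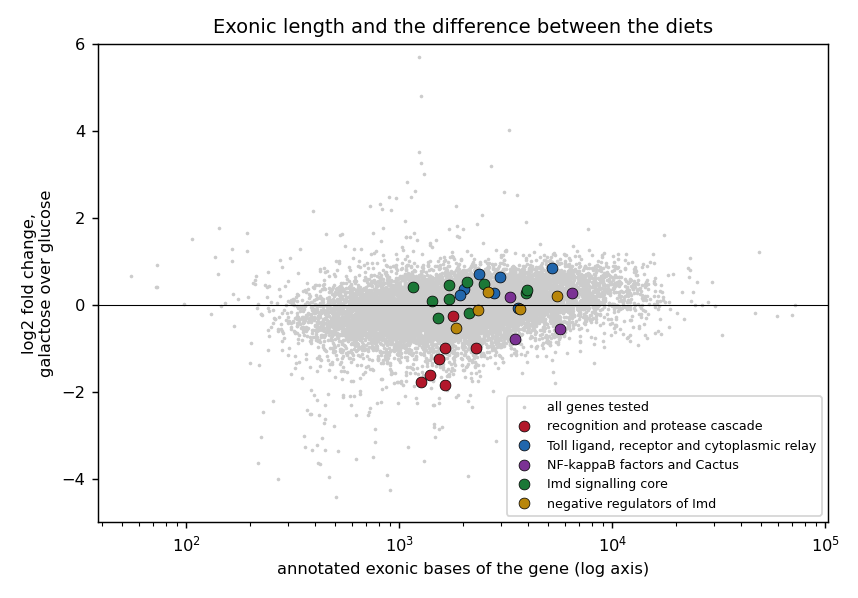
Annotated exonic bases of each gene on a log axis against its log2 fold change of galactose over glucose, for the tested genes with a known length (grey) and the 33 members (coloured by role). The grey cloud tilts upward (rho = 0.335), and 6 of the 7 cascade genes lie at -0.99 or lower while other members of like length lie between -0.53 and 0.53.

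Other genes of the pathways were counted in lists by role. Among 11 peptidoglycan recognition proteins, 9 had lower means on galactose and 7 were lower in both galactose libraries, against 23.4% of all genes. The median log2 fold change was -0.71, and -1.502 without galactose replicate 1. edgeR called 0 of them and DESeq2 called 3, all lower, where it called 0.623% of all genes lower. PGRP-SD, a secreted receptor, had 4.15 and 2.92 CPM on galactose and 11.6 and 27.5 CPM on glucose. PGRP-SB1, a secreted amidase, had 11.3 and 6.74 CPM on galactose and 40.3 and 65.2 CPM on glucose.

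Of 14 tested Toll pathway regulators outside the 33 genes, 12 had higher means on galactose, with a median of 0.40. The 2 exceptions were GNBP2 and Hayan. GNBP2, of the same family as GNBP3, stood at 9.67 and 6.29 CPM on galactose and 15.2 and 19.5 CPM on glucose. Hayan had 6.27 and 9.53 CPM on galactose and 8.38 and 14.9 CPM on glucose, which overlapped. Gprk2, a kinase needed for full Toll signalling, had 66.1 and 98.9 CPM on galactose and 47.9 and 61.0 CPM on glucose. Of 9 Imd pathway regulators 8 were higher, with a median of 0.59. The deubiquitinase gene Usp2 had 164 and 196 CPM on galactose and 119 and 104 CPM on glucose, and the ubiquitin ligase gene dgrn had 28.2 and 37.9 CPM on galactose and 19.8 and 21.0 CPM on glucose. edgeR and DESeq2 called 0 members of either list, and at an unadjusted p under 0.05 there were 1 Toll regulator, lower, and 2 Imd regulators, higher. Over all genes 5.16% were lower and 3.08% higher at that level.

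The lists of Toll and Spatzle paralogs and of the JNK branch had medians closer to 0. Of 8 tested paralogs of Toll and Spatzle, 4 were higher and 4 lower on galactose, with a median of 0.04 that was -0.056 with upper-quartile scaling, -0.27 without galactose replicate 1, 0.27 without galactose replicate 2 and -0.13 without glucose replicate 1. Tollo had 17.5 and 22.8 CPM on galactose and 12.2 and 14.0 CPM on glucose, and spz3 had 2.53 and 2.202 CPM on galactose and 3.04 and 4.26 CPM on glucose. The 10 genes listed for the JNK branch had a median of -0.09, with 3 higher and 7 lower. They include egr, grnd, wgn and Traf4, which act upstream of Tak1, at log2 fold changes of -0.35, -0.50, -0.36 and -0.23. The kinase gene Mkk4 had 78.7 and 97.4 CPM on galactose and 58.2 and 54.1 CPM on glucose. The other gene for a kinase of JNK, hep, had 87.6 and 136 CPM on galactose and 62.0 and 92.6 CPM on glucose. edgeR and DESeq2 called 0 genes of these lists, with 0 and 1 at an unadjusted p under 0.05. That gene, Mkk4, was higher on galactose, as were 3.08% of all genes at that level.

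The median of the secreted peptides at the end of both pathways had the same order of libraries as the median of the protease cascade. Some single genes departed from that order, among them Def and CecA1 of the peptides and GNBP1 of the cascade. Of 28 peptide genes 27 were tested, and Drs, for Drosomycin, was not analysed here. All 27 had lower means on galactose, against 53.1% of all genes, and 26 were lower in both galactose libraries, against 23.4%. Their median log2 fold change was -3.01. edgeR called 0, with 23 lower at an unadjusted p under 0.05, against 5.16% of all genes. DESeq2 called 16, all lower, where it called 0.623% of all genes lower. The median deviation of the peptides was -0.79 and -1.87 in galactose replicates 1 and 2, and 0.75 and 1.84 in glucose replicates 1 and 2. For the cascade it was -0.37 and -0.83 on galactose and 0.33 and 0.95 on glucose. The set medians of the NF-kappaB genes with Cactus, the Imd core and the negative regulators stayed within 0.28 of 0 in every library. Within these sets, the single genes Rel, Dif and pirk had the order of libraries of the cascade's median, while the other genes did not.

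**Figure D5:**
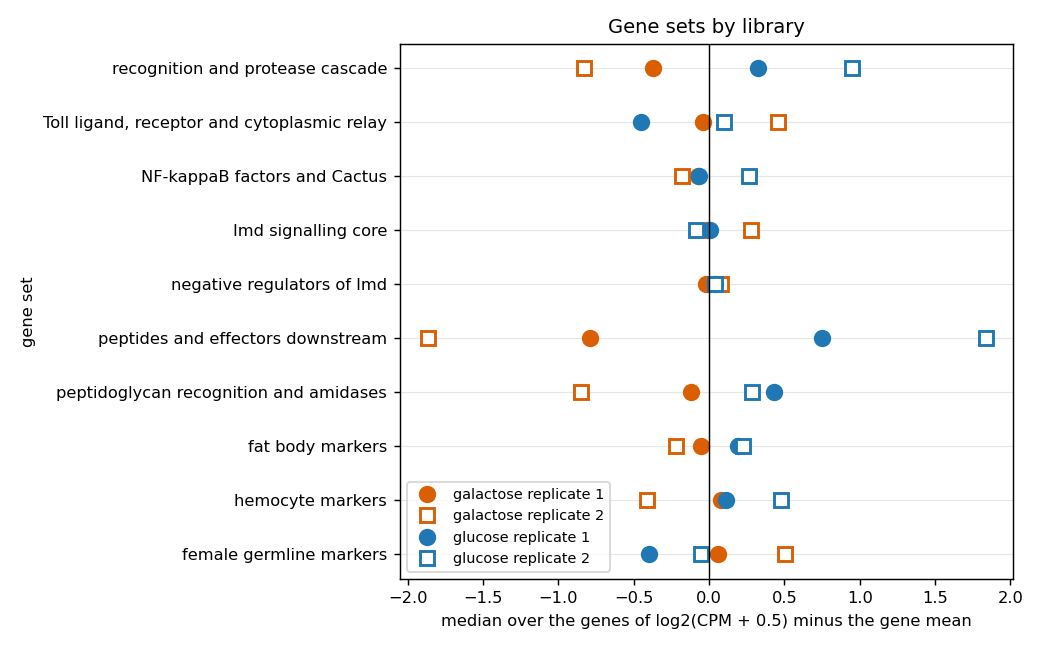
Median over each gene set of log2(CPM + 0.5) minus the gene's mean over the 4 libraries, with galactose in orange and glucose in blue, filled circles for replicate 1 and open squares for replicate 2. The cascade (-0.83 to 0.95) and the peptides downstream (-1.87 to 1.84) spread in the same order of libraries, while the medians of the relay genes and of the female germline markers are both highest in galactose replicate 2 and lowest in glucose replicate 1.

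The extreme libraries of the 33 members as a whole were counted as well. Galactose replicate 2 was the highest library for 16 of 33 members, against 29.4% of all genes, and glucose replicate 1 was the lowest for 14, against 27.0%. Glucose replicate 1 was the highest library for 2 members, against 30.7% of all genes. Replicates of a diet were a median 1.31-fold apart on galactose and 1.33-fold on glucose over the members, and 1.23-fold and 1.29-fold over all genes tested, the last 2 values with 0.5 CPM added to each level.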

How the data were processed

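HTSeq 0.6.1, TopHat2 2.0.12, Bowtie2 2.2.3, DESeq2 and build BDGP6 are named in the submitters' processing notes. The authors deposited raw read counts per gene, whole numbers for 4 libraries, and a table of their own comparison with a log2 fold change of glucose over galactose and an adjusted p-value. Members and lists were chosen with earlier results of these data known. Every member is given with its values in each library. Full statistics follow for the 6 with the smallest p and for those that head each pathway. Of the other lists of pathway genes, apart from the peptides, values are given for the 2 with the smallest p. For the peptides and the female germline markers, counts and medians are given. The fat body and hemocyte markers named were not picked by p alone. Names came from the reference gene tables, coordinates and exonic lengths from the BDGP6.54 annotation; of 116 genes in the other lists 110 matched.

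The main test was edgeR 4.0.16 (R 4.3.3), quasi-likelihood F test, TMM scaling, filterByExpr (minimum count 10, minimum total 15), no block, Benjamini-Hochberg over 12529 genes, threshold 0.05. The SE is the fold change divided by the root of F. Alternatives were DESeq2 1.42.0, limma-voom (limma 3.58.1), other scalings, no filter, each library left out in turn and the replicate number as a term; repeats of DESeq2 on 3 libraries were added with the data seen. The tests were tested on simulated counts. Totals of 21147212 to 25497099 counts limit precision little beside the spread between libraries.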

Additional observations from a re-analysis of the deposited data

How the results depend on the processing

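With all 4 libraries, edgeR called 0 genes and 0 members under other scalings and without a filter, as did limma-voom; DESeq2 called 90 genes and 3 members. With each library left out in turn edgeR called 0 to 549 genes and 0 to 5 members; such a fit has 1 diet with a lone library, which is assumed to vary like the 2 libraries of the other diet, so its calls do not measure stability. DESeq2 called 49, 22, 330 and 18 genes without galactose replicate 1, galactose replicate 2, glucose replicate 1 and glucose replicate 2, and 0 to 4 members. The members' median log2 fold change of 0.13 was 0.016 with upper-quartile scaling, which moved the median of all genes by -0.11, and lay between -0.087 and 0.10 when a library was left out. The cascade's median of -1.25 lay between -1.57 and -0.85. Of the 1033 genes at an unadjusted p under 0.05, 62.6% were lower on galactose, against 53.3% with median-of-ratios and 78.5% with upper-quartile scaling. Same-numbered libraries deviated together (r = 0.225 across genes), but the labels tie the numbers to nothing shared; with the replicate block edgeR called 0 genes and 0 members, and the medians were 0.14 and -1.22.

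Of the 33 members 25 kept their direction under each of 10 alternatives: other scalings, no filter, DESeq2, limma-voom, the replicate block, and edgeR without each library. With a library left out, the other 8 turned within these ranges: Myd88 -0.21 to 0.10, pll -0.10 to 0.46, Traf6 -0.089 to 0.64, cact -0.11 to 0.49, Dredd -0.038 to 0.33, Tak1 -0.037 to 0.68, key -0.047 to 0.26 and CYLD -0.46 to 0.33. In Traf6 (-0.022) and cact (-0.065) the sign also turned when glucose replicate 1 was left out, in Dredd (-0.036) when galactose replicate 1 was, and in key (-0.022) with upper-quartile scaling. The cause was not tested.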
